A study of Mus musculus with 4 samples.

Results

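The genes of the cornified envelope were followed across the epithelial cells of mouse gingiva in 4 single-cell RNA libraries. The members were all genes whose symbol starts with Sprr or Lce and a digit, together with Lor, Flg, Flg2, Hrnr, Rptn, Crnn, Tchh, Tchhl1, Ivl, Krtdap, Tgm1, Tgm3 and Casp14. Among the 31253 genes measured, 49 symbols matched, and 46 held at least 20 unique molecular identifiers (UMIs, tags that mark single captured transcripts) over the 4 libraries. Sprr2a1 with 1 UMI, Tchhl1 with 4 and Sprr4 with 0 were left out. The 46 members were 14 Lce1 genes, 6 Lce3 genes, Lce6a, 10 Sprr2 genes, Sprr1a, Sprr1b, Sprr3, 6 S100-fused genes (Crnn, Flg, Flg2, Hrnr, Rptn and Tchh), Lor, Ivl, Krtdap and 3 enzymes (Tgm1, Tgm3 and Casp14). No measured level entered that choice beyond the minimum of 20 UMIs.

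Each group was 1 library, so the differences below lack replicates and are given without p-values. The cHet_control and cHet_PD libraries carried the genotype Itga9-Lyz2-cHet, and the cKO_control and cKO_PD libraries carried Itga9-Lyz2-cKO. Itga9 encodes the integrin subunit α9, and Lyz2 is a gene of myeloid cells whose locus is used to drive Cre recombinase there. Both genotypes therefore carry a Lyz2 and an Itga9 element, and no wild-type group was analysed here. Control gingiva was compared with gingiva of experimental periodontitis (PD), for which silk thread was tied around the second upper molar, Porphyromonas gingivalis was applied and the tissue was taken after 14 days. The tissue was digested with enzymes to single primary cells, and the labels give neither the number of animals in a library nor their age, sex or strain. The 4 libraries held 6684 to 9331 barcodes and 21368197 to 62914870 UMIs. The shallowest barcode held the same number of UMIs in both control libraries, and 33.7% of the barcodes of cHet_PD and 25.0% of those of cKO_PD lay under that number. The median mitochondrial share was 10.1% in cHet_control and 11.9% in cKO_control, against 5.39% in cHet_PD and 5.82% in cKO_PD. The cell filters kept 90.3% and 82.2% of the control barcodes and 98.8% and 98.7% of the PD barcodes. The part of this in the differences between PD and control was not tested. Itga9 reached 125, 84.7, 35.6 and 16.9 CPM (UMIs of a gene per 1000000 UMIs of the cell group) in mononuclear phagocytes of cHet_control, cHet_PD, cKO_control and cKO_PD, in that order, and was at most 0.963 CPM in keratinocytes. Every series of 4 values below has the same order. Keratinocytes, taken as clusters with at least 15000 CPM of general keratinocyte markers, numbered 6827, 5953, 5484 and 3824. Pairs of libraries shared 65 to 116 barcodes, and doublets were not removed.

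The cornified envelope is the protein shell that replaces the plasma membrane of a keratinocyte as it reaches the surface of a stratified epithelium. Involucrin (Ivl), loricrin (Lor), small proline-rich proteins (Sprr) and late cornified envelope proteins (Lce) are its building blocks, and transglutaminases cross-link them to each other and to keratin filaments bundled by filaggrin-type proteins. Most of these genes lie side by side in the epidermal differentiation complex. The palate and the attached gingiva are cornified, whereas the sulcular and junctional epithelium next to the tooth are not, so gingival tissue contains keratinocytes that complete this programme and others that do not. Sprr genes are also known as genes of injured and inflamed epithelium.

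Of the 46 members 42 lay on chromosome 3 of mm10, in the order Lor, Sprr block, Ivl, Lce block, S100-fused block. The stretch from Lor to Tchhl1 was chr3:92080271-93471980, which is 1391.7 kb and held 45 of the 49 matching genes. Within it the 15 Sprr genes occupied chr3:92215799-92500493, the 21 Lce genes chr3:92620081-93019060 and the 7 S100-fused genes chr3:93144787-93471980. Tgm3 on chromosome 2, Krtdap on 7, Casp14 on 10 and Tgm1 on 14 lay outside. The upstream windows of 7 members are shown because these genes carry the contrasts described below: an Sprr1 gene, a pair of Sprr2 genes, Lor, Flg, Krtdap and an Lce1 gene. Each window holds the 250 bases before the annotated start in the RefSeq annotation of GRCm38.p6 (the mm10 sequence), read 5′ to 3′ along the gene's own strand. Capitals mark letters that match TGANTCA for AP-1, TATAAA for the TATA box or ATGCAAAT for the octamer motif, in either orientation.
The window of Sprr1b was chr3:92438780-92439029 on the minus strand.
Sprr1b: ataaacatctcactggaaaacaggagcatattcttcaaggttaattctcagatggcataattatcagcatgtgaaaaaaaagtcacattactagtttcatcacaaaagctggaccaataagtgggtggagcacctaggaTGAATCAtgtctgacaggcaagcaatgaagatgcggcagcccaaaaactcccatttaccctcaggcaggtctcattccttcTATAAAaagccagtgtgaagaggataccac
The window of Sprr2h was chr3:92385435-92385684 on the plus strand.
Sprr2h: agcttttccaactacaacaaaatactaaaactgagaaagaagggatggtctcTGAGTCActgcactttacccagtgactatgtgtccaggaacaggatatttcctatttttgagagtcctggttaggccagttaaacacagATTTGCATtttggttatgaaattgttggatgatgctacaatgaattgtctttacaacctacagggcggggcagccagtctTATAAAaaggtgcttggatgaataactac
The window of Sprr2i was chr3:92407741-92407990 on the plus strand.
Sprr2i: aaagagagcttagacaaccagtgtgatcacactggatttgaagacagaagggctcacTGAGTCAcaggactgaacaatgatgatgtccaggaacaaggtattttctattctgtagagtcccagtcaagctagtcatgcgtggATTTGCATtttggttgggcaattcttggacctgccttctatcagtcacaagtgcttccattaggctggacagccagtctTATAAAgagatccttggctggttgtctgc
The window of Lor was chr3:92083143-92083392 on the minus strand.
Lor: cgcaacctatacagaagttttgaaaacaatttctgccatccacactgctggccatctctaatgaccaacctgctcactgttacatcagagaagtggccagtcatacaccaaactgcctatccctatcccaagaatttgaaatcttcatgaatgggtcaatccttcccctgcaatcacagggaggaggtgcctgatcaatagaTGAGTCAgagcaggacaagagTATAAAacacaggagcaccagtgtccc
The window of Flg was chr3:93273296-93273545 on the plus strand.
Flg: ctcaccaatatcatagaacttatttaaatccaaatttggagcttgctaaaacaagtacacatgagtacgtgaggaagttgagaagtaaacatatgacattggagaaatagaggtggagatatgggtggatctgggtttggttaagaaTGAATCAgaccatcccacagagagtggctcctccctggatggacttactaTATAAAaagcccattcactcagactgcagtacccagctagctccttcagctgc
The window of Krtdap was chr7:30787655-30787904 on the plus strand.
Krtdap: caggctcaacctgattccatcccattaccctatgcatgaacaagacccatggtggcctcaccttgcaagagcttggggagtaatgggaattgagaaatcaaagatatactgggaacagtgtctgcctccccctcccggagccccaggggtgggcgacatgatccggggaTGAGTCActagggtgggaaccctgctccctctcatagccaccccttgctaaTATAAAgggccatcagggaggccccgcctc
The window of Lce1d was chr3:92687211-92687460 on the minus strand.
Lce1d: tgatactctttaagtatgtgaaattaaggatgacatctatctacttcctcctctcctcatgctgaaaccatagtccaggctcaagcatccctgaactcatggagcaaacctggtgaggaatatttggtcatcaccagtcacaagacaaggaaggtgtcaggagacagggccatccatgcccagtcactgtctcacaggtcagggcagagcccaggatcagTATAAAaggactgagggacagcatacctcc

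The windows differed by family. The TATA box began 30 bases before the start in Sprr1b, Krtdap and Lce1d, 29 in Sprr2h and Sprr2i, 27 in Lor and 53 in Flg. These distances depend on the annotated start. The gene positions used for the blocks above start Flg at chr3:93273523, which is inside its window, and those of Sprr1b and Krtdap also start inside theirs. An AP-1 motif, the site of Fos and Jun family proteins, stood 111 bases before the start in Sprr1b, 198 in Sprr2h, 193 in Sprr2i, 48 in Lor, 103 in Flg and 81 in Krtdap, and Lce1d held none. Sprr2h and Sprr2i also held the octamer, the site of POU family factors, at 109 and 108 bases. A window was found for 44 of the 46 members, Lce1f and Sprr2j-ps having none. A member was counted for a motif where any window of the gene matched, whereas the share over all windows counts each window by itself. The shares set side by side are therefore not quite alike. AP-1 stood in 16 of the 44 (36.4%), among them 7 Sprr2 genes and 0 Lce1 genes, against 6.75% of all 32851 windows of this length. The TATA box stood in 22 (50.0%, against 12.4%), with 7 Sprr2 and 2 Lce1 genes. The octamer stood in 7 (15.9%, against 1.60%), all of them Sprr2 genes: Sprr2b, Sprr2d, Sprr2e, Sprr2f, Sprr2h, Sprr2i and Sprr2k. These 3 motifs were chosen for display after the matches of 15 were seen.

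The other 12 motifs were searched on both strands in the same windows, with members counted out of the same 44. C/EBP (TTGCNNAA) matched 6 members against 9.56% of all windows, KLF (GGGNGGGG) 6 against 30.8%, GRHL (AACCNGTT) 1 against 1.79% and ETS (ACCGGAAGT) 0 against 0.804%. TEAD (GGAATG) matched 10 against 12.6%, STAT (TTCNNNGAA) 3 against 7.02%, NRF2 (TGACNNNGC) 8 against 10.2% and the E-box (CACGTG) 1 against 6.02%. SOX (ACAATGG) matched 1 against 3.02%, the IRF motif 1 against 2.98%, the NF-kB motif 0 against 0.980% and the p53 family motif 0 against 0.0274%. Some motifs can share bases, such as AP-1 with NRF2, and each was counted by itself. A match describes the letters of the window and is not a bound site, and the lack of one says only that the letters are not in this window.

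Keratinocyte layers were drawn from clusters made without the member genes, so the members did not define them. The layers were basal-like, cycling-like, spinous-like (Krt1, Krt10), upper spinous-like (led by Krt2 and Slurp1, with 6 granular-layer markers among its top 50 genes), mucosal suprabasal-like (Krt4, Krt13) and junctional-like (Odam, BC037156). Clusters 3 (Gjb2, Phlda1) and 15 (Aqp3, Ifi202b) carried wound-type markers. Cluster 4 (Krt76, Krt24) stayed unnamed, as did clusters 6, 11, 12 and 14. Cluster 14 had 8, 1694, 6 and 788 cells and cluster 15 had 2, 1454, 2 and 227, so both came almost wholly from the PD libraries. The upper spinous-like layer held 591, 143, 367 and 102 cells, which was 8.66%, 2.40%, 6.69% and 2.67% of the keratinocytes. Junctional-like cells numbered 38, 513, 93 and 737, cluster 3 had 4, 260, 4 and 55 cells, and cluster 4 had 691, 18, 608 and 6. Basal-like cells came from clusters 0 and 7 in the control libraries and from cluster 13 in the PD libraries, and spinous-like cells from cluster 5 in controls and 10 in PD, whereas the upper spinous-like layer was 1 cluster in all 4. Values are given for layers with at least 40 cells in a library.

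Against basal-like cells, the upper spinous-like layer held far more transcript of nearly every member that could be compared. A gene was compared where 1 of the 2 cell groups held at least 50 of its UMIs. It was called where the groups were at least 2-fold apart with 10 CPM added to both and the exact 95% interval of the ratio excluded 1. Intervals cover counting error only, and the minimum keeps genes that are high in either group. In cHet_control 30 of 31 members were called higher (background 7.89% of all genes compared, and 13.2% for lower), in cHet_PD 14 of 14 (7.21% and 30.6%), in cKO_control 15 of 15 (6.69% and 15.3%) and in cKO_PD 12 of 12 (6.96% and 36.2%), and 0 were called lower in any library. Without the 8 cells of cHet_control that are described below as rich in Lce1, 13 of 14 members were higher in that library (background 7.65%). The members' median log2 fold was 2.77, 5.45, 3.96 and 5.27, beside -0.32, -0.62, -0.38 and -0.68 over all genes compared. Lor reached 1579, 3334, 604 and 1435 CPM in the upper layer and at most 8.46 CPM in basal-like cells. Krtdap, a secreted keratinocyte protein of the suprabasal layers, was counted in every layer, with 622, 966, 1012 and 1016 CPM in basal-like, 4751, 5704, 5774 and 4570 in spinous-like and 9204, 10803, 10278 and 8616 in upper spinous-like cells, the basal-like values lying near those of fibroblasts given below.

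The layers in which members were highest were counted in each library. The share of all genes that peak in each layer was not computed, so these counts describe the members alone. Among members with at least 50 UMIs in the keratinocytes of a library, 28 of 33 peaked in the upper spinous-like layer in cHet_control and 10 of 20 in cKO_control. Of these 28, 14 were Lce1 genes or Lce6a, and without the 8 Lce1-rich cells 16 members kept 50 UMIs and 11 of them peaked there. Sprr2d counts among the 11 at 0.936 CPM, although it reached 20.1 CPM over all keratinocytes, because the 38 junctional-like cells of cHet_control were too few for a value. In cHet_PD the upper layer was the peak of 6 of 26 (Lor, Lce3e, Flg, Hrnr, Rptn and Casp14), while cluster 3 was the peak of 13, among them Sprr1a, Sprr1b, Tgm1 and 7 Sprr2 genes. In cKO_PD each of these held 7 of 18 peaks. Lor, Flg, Hrnr and Rptn peaked in the upper spinous-like layer in all 4 libraries. Crnn, the cornulin gene of mucosal cornified epithelium, peaked in cluster 4 in both controls.

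**Figure D1:**
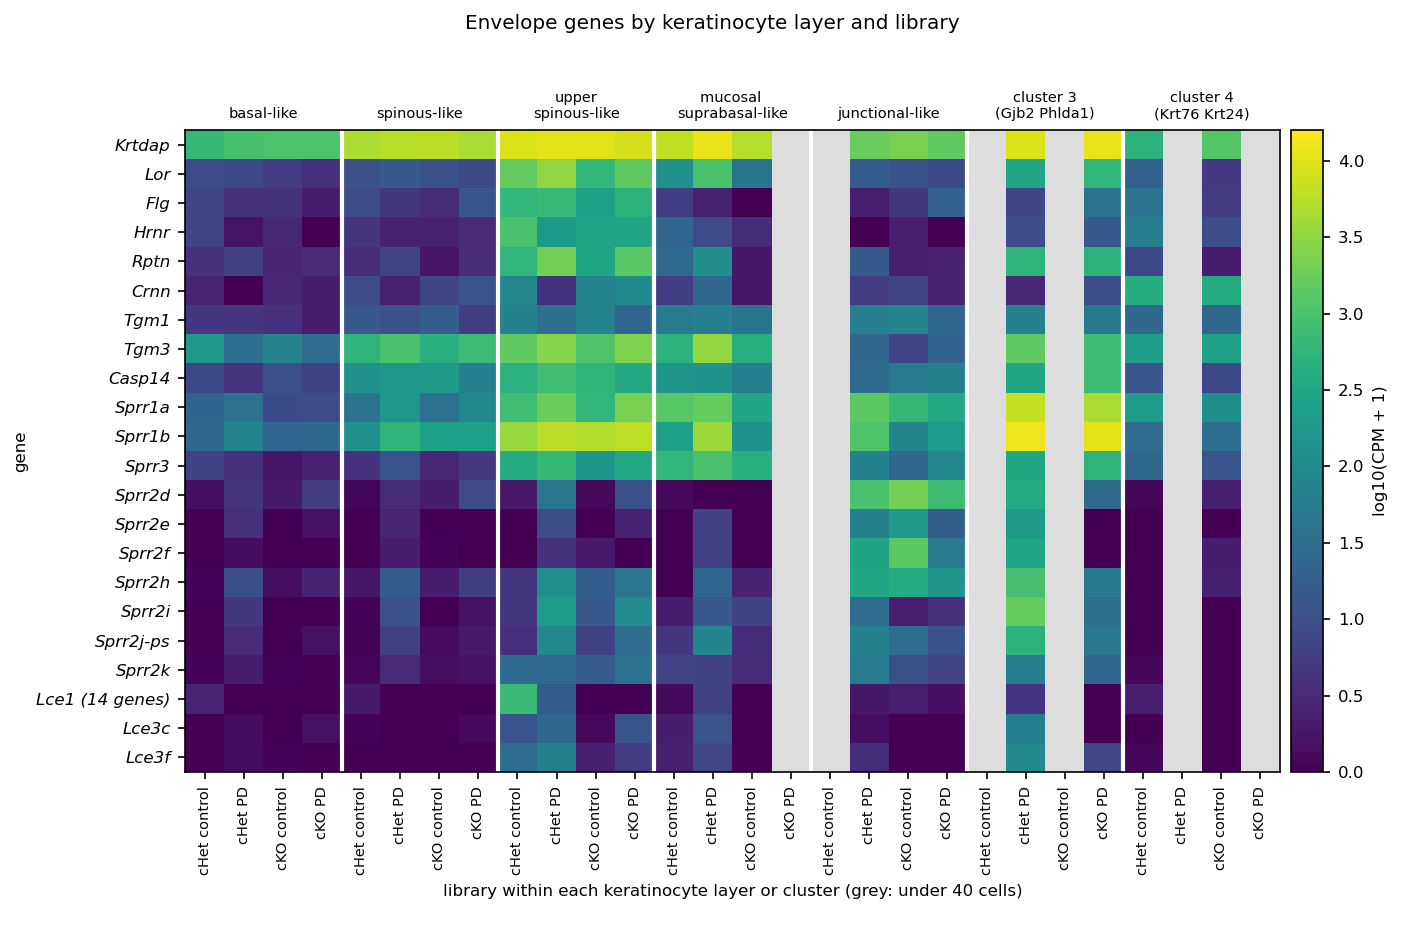
Level of 22 members by keratinocyte layer and library, as the log10 of CPM plus 1, in a colour scale shared by all panels. Grey marks layers with fewer than 40 cells in that library. Lor, Flg, Hrnr and Rptn were highest in the upper spinous-like layer of each library, while Sprr1a, Sprr1b, Sprr2h and Sprr2i of cHet_PD were highest in cluster 3.

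Lor, Hrnr and Flg were highest in cHet_control when all keratinocytes of a library were summed. Lor, the main protein of the epidermal envelope, reached 275 CPM (95% exact Poisson interval 270 to 280) in cHet_control, 181 (176 to 186) in cHet_PD, 82.3 (79.4 to 85.4) in cKO_control and 98.2 (92.8 to 104) in cKO_PD. Hrnr (hornerin, a filaggrin-like repeat protein) reached 174, 8.28, 41.4 and 16.5 CPM. Flg (profilaggrin, whose repeats bundle keratin) reached 110, 26.1, 33.1 and 35.2 CPM. The cHet_control library stood above the other 3 for each of these genes, and its interval overlapped with none of theirs. In cHet_PD against cHet_control Hrnr was 21.1-fold lower (18.5 to 24.1), Flg 4.21-fold lower (3.90 to 4.56), and Lor 1.52-fold lower (1.47 to 1.57), which was not called. In cKO_control against cHet_control Hrnr was 4.21-fold lower (3.98 to 4.46), Lor 3.34-fold (3.21 to 3.48) and Flg 3.32-fold (3.12 to 3.54). Within cKO, PD against control left Lor (1.19-fold higher) and Flg (1.06-fold, interval 0.952 to 1.19) uncalled, and Hrnr at 2.50-fold lower was under the limit once 10 CPM were added.

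Crnn and Rptn went separate ways from loricrin. Crnn reached 61.6 CPM (59.4 to 63.9) and 54.9 (52.5 to 57.4) in the controls but 1.88 (1.40 to 2.46) in cHet_PD and 8.70 (7.15 to 10.5) in cKO_PD. It was 32.8-fold lower in PD in cHet (24.9 to 44.0) and 6.31-fold lower in cKO (5.21 to 7.72). Cluster 4, where it peaked at 405 and 380 CPM in the controls, had 18 and 6 cells in the PD libraries, and in a summed class fewer cells of a kind and less RNA per cell cannot be told apart. Rptn (repetin) reached 97.7, 133, 39.6 and 85.6 CPM and was called only in cKO_control against cHet_control, 2.47-fold lower (2.33 to 2.63). Tchh, the trichohyalin gene known from hair follicle and tongue, stayed between 5.35 and 8.46 CPM in all 4 libraries, and Flg2 held 41, 4, 25 and 1 UMIs, too few to compare.

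Both Sprr1 genes, precursors of the envelope in stressed and mucosal epithelium, were highest in cHet_PD. Sprr1b reached 655 CPM (647 to 662), 1945 (1929 to 1962), 738 (729 to 747) and 845 (829 to 861), with at least 1 UMI in 23.3%, 39.5%, 20.3% and 17.4% of keratinocytes. Sprr1a reached 314, 982, 124 and 375 CPM. Sprr1b stood apart in cHet_PD alone, being 2.97-fold higher there than in cHet_control (2.93 to 3.01) but 1.14-fold higher in cKO_PD than in cKO_control (1.12 to 1.17). Sprr1a was 3.13-fold higher in PD within cHet (3.07 to 3.19) and 3.01-fold within cKO (2.89 to 3.14), from a cKO control that was 2.52-fold below the cHet control (2.44 to 2.61). Between the PD libraries, Sprr1b was 2.30-fold lower (2.25 to 2.35) and Sprr1a 2.62-fold lower in cKO_PD. Sprr3, an Sprr gene of mucosal epithelium, followed the loricrin pattern with 121, 89.5, 39.1 and 52.5 CPM and was called in the control pair only, 3.09-fold lower in cKO_control (2.91 to 3.28). The 2 treatment pairs and the 2 genotype pairs share libraries and are not independent of each other.

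Most Sprr2 genes were near 0 in cHet_control and highest in cHet_PD. These 10 neighbouring genes encode closely similar short proteins, so reads that fit several copies may have been shared or dropped, and values of single copies are uncertain. Sprr2i reached 0.837 CPM (0.595 to 1.14), 173 (168 to 178), 1.95 (1.52 to 2.47) and 7.99 (6.51 to 9.71). Sprr2h reached 1.35, 134, 11.7 and 32.9 CPM, and Sprr2j-ps, annotated as protein coding despite its name, 0.901, 64.1, 1.59 and 6.01 CPM. The cHet_PD library was above the other 3 for all of these. Sprr2i was 207-fold higher in cHet_PD than in cHet_control (151 to 291), Sprr2h 99.3-fold (77.4 to 129), Sprr2f 90.5-fold (62.4 to 137), Sprr2e 78.9-fold (47.5 to 142) and Sprr2j-ps 71.1-fold (52.4 to 99.0). In cKO_PD against cHet_PD Sprr2i was 21.7-fold lower (17.8 to 26.6), Sprr2j-ps 10.7-fold (8.47 to 13.6), Sprr2e 7.64-fold (5.59 to 10.7), Sprr2f 6.03-fold (4.98 to 7.36) and Sprr2h 4.08-fold (3.68 to 4.52).

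Sprr2d differed from its neighbours. It reached 20.1 CPM (18.8 to 21.4) in cHet_control and 125 (121 to 129) in cHet_PD, and 47.1 (44.9 to 49.4) in cKO_control and 135 (128 to 141) in cKO_PD. Both PD libraries were above both controls, 6.23-fold in cHet (5.80 to 6.71) and 2.86-fold in cKO (2.67 to 3.06), and the PD libraries were 1.08-fold apart (1.02 to 1.14). Few cells carried it in the controls: in cHet_control 27 cells held a UMI of it and 1 of them held 486 of the 935 UMIs, and in cKO_control 44 cells held a UMI and the 5 top cells 79.4% of the total. Without the 5 top cells of each library the log2 folds of PD over control were 3.29 in cHet and 2.61 in cKO, against 2.17 and 1.34 with all cells. Junctional-like cells, which held 1625 of its 1703 UMIs in cKO_PD, numbered 38 and 93 in the controls and 513 and 737 in PD, and the part of this in the difference was not tested. Sprr2f went opposite ways with treatment: it reached 0.601 and 54.4 CPM in cHet_control and cHet_PD but 30.3 and 9.02 in cKO_control and cKO_PD. Its level in cKO_control rested on few cells, since 0.201% of keratinocytes there held a UMI of it. Without the 5 cells of each library with the most Sprr2f UMIs, the log2 fold of PD over control in cKO moved from -1.08 to 0.49, and that of cKO_control over cHet_control from 1.93 to 0.04. Sprr2k, at 6.63, 13.6, 2.52 and 3.88 CPM, and Sprr2a2, at 0.340 to 0.493 CPM, were called in no pair.

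**Figure D2:**
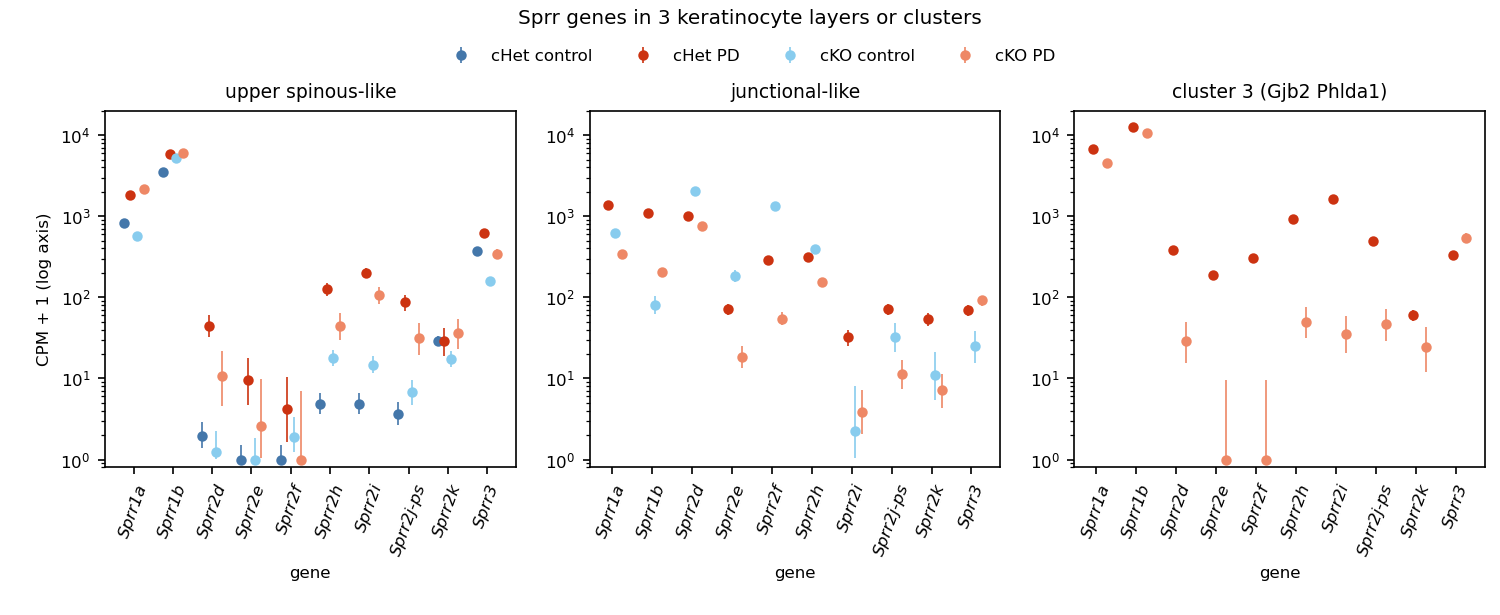
Level of the Sprr members in 3 keratinocyte groups, as CPM plus 1 on a log axis, with 1 marker per library and only libraries with at least 40 cells of the group. In cluster 3 the Sprr2 markers of cHet_PD lay above those of cKO_PD, for Sprr2i at 1624 against 34.8 CPM, while Sprr1b lay close together at 12486 and 10541.

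The Lce1 genes and Lce6a were in effect transcripts of 8 cells. Together these 15 genes held 5822 UMIs in cHet_control, 30 in cHet_PD, 2 in cKO_control and 1 in cKO_PD. In cHet_control 8 cells with at least 20 of these UMIs each held 5731 of the 5822 (98.4%), with 2031, 1856, 626, 582, 507, 57, 39 and 33 UMIs, and the next cell held 5. All 8 lay in the upper spinous-like layer. Lce1d reached 16.5 CPM (15.4 to 17.7) in keratinocytes of cHet_control, 0.181 in cHet_PD and 0 UMIs in both cKO libraries, so it was at least 195-fold lower in cKO_control by a limit of 3 UMIs. Without the 8 cells the log2 fold of Lce1d for that pair moved from -1.41 to -0.03 and fewer than 50 UMIs remained. Because Lce1 copies are near-identical, the split of UMIs among them is uncertain. Their sum is less affected if reads that fit several copies were shared among them, but too low if such reads were dropped. The smaller number of upper-layer cells in the other libraries moved with this difference, and its part in it was not tested.

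These 8 cells carried a transcript profile unlike the 583 other cells of their layer. They had a median of 2629.5 UMIs and 779 genes, against 12349 and 2980, and a median mitochondrial share of 2.04% against 5.32%. The members made up 29.2% of all their UMIs, against 1.93% in the other cells. Lor reached 50616 CPM in the 8 cells and 1328 in the others, a 38.1-fold difference. Rptn reached 39032 and 373 CPM, Flg 24060 and 491, Hrnr 10454 and 952, and Lce3f 5700 and 2.82. The opposite held for Sprr1b, which had 0 UMIs in the 8 cells against 3561 CPM in the others and so was at least 45.2-fold lower, and for Tgm3, with 1 UMI (26.3 CPM) against 1496 CPM. Krtdap was 5.33-fold lower in the 8 cells, at 1734 against 9243 CPM. Kprp, a proline-rich neighbour gene of the Lce block, held 839 UMIs in the 8 cells and 8 in the other 583, and Cdsn, the corneodesmosome protein, reached 17546 against 152 CPM. The median doublet score was 0.0634 in the 8 cells and 0.0528 in the others. The 8 cells were chosen for their Lce1 UMIs, so these values describe them and test nothing.

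**Figure D3:**
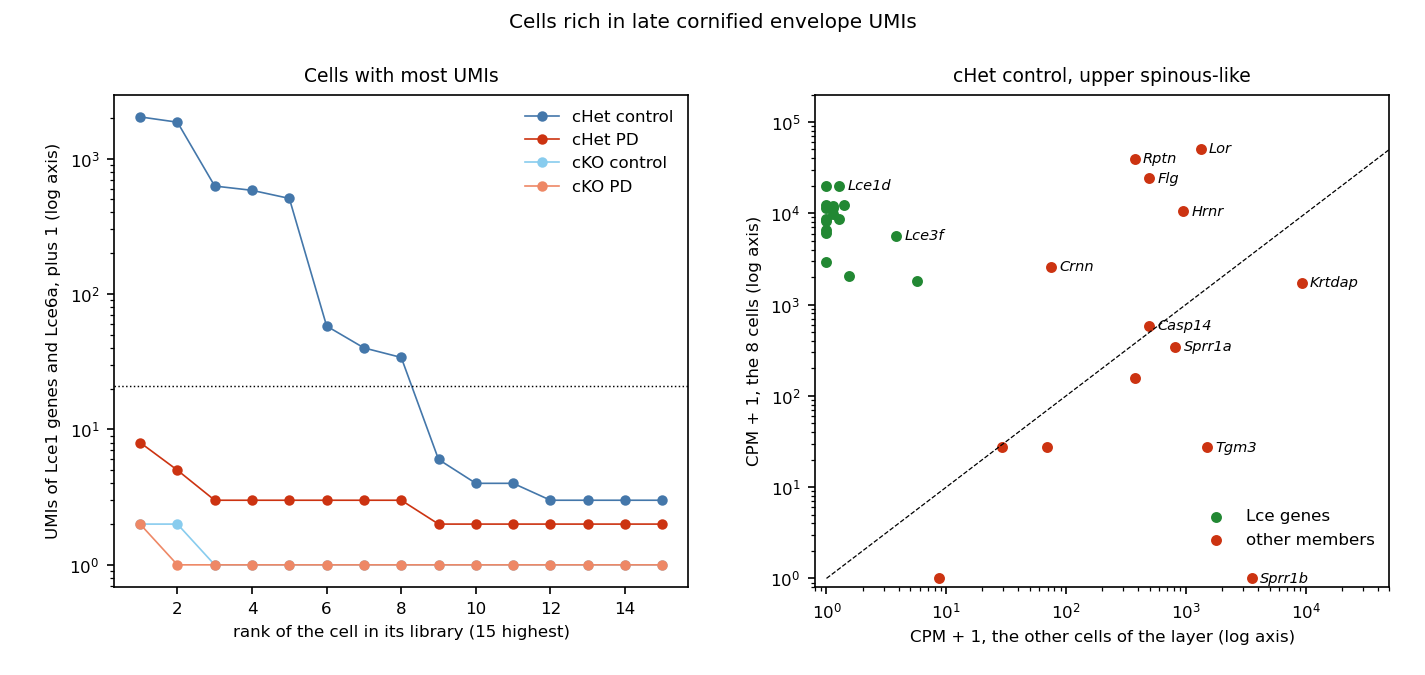
Left, UMIs of the Lce1 genes and Lce6a plus 1 (log axis) in the 15 highest cells of each library by rank, with a dotted line at 20 UMIs. Right, CPM plus 1 of Lce genes and other members (log axes, dashed line at equality) in the 8 cells above the line against the 583 other upper spinous-like cells of cHet_control. Only cHet_control had cells above the line, and Sprr1b and Tgm3 fell on the opposite side from Lor, Flg and Rptn.

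Lce3f and Lce3c, of the Lce3 genes known from skin after barrier injury, differed from Lce1 in being highest in cHet_PD. Lce3f reached 5.32 CPM (4.68 to 6.02), 13.3, 0.198 (0.0797 to 0.409) and 0.712 (0.326 to 1.35), and Lce3c 1.91, 8.31, 0.0283 and 0.791. The cHet_PD library was highest for both and the cKO libraries lowest. Lce3f was 18.7-fold lower in cKO_PD than in cHet_PD (9.76 to 41.3), but its log2 fold moved from -1.12 to -0.73, under the limit, without the 5 cells with the most UMIs in each library. In cHet_control 217 of the Lce3f UMIs of the upper layer lay in the 8 Lce1-rich cells. Without these cells all keratinocytes of cHet_control kept 31 UMIs of Lce3f and 10 of Lce3c. In the upper layer Lce3f then fell from 31.8 to 2.82 CPM and Lce3c from 11.1 to 0.538 CPM. Without those cells Lce3f was called higher in cHet_PD than in cHet_control, at a log2 fold of 1.13. Lce3b and Lce3d held 28 and 33 UMIs in all 4 libraries together.

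Krtdap, the enzymes and Ivl were called in none of the 4 pairs over all keratinocytes. Krtdap reached 3456 CPM (3439 to 3473), 3497 (3475 to 3519), 3571 (3551 to 3591) and 3132 (3101 to 3163), with a UMI in 73.5% to 79.0% of keratinocytes, and the libraries stayed within 1.14-fold. Tgm3, the epidermal transglutaminase that pre-assembles envelope precursors, reached 503, 519, 339 and 391 CPM. Casp14, the caspase that takes part in filaggrin breakdown, reached 130, 100, 129 and 88.2 CPM. Tgm1, the membrane-bound transglutaminase that anchors the envelope, was lowest in cKO_PD at 27.4, 20.1, 23.5 and 9.89 CPM, 2.38-fold below cKO_control (1.97 to 2.89). Ivl, the first scaffold of the envelope in epidermis, had only 46, 11, 22 and 3 UMIs in keratinocytes, so no difference in it was detectable at this depth.

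Counted over all keratinocytes, the members called higher in PD were Sprr genes and those called lower were mainly S100-fused and Lce1 genes. In cHet_PD against cHet_control 40 members were compared: 8 were higher (background 4.15%) and 7 lower (3.57%), with a median log2 fold of -0.31 beside -0.06 over all genes. The higher ones were Sprr2i (log2 fold 4.08), Sprr2h (3.67), Sprr2j-ps (2.76), Sprr2f (2.60), Sprr2d (2.17), Sprr2e (1.78), Sprr1a (1.62) and Sprr1b (1.56), all of them Sprr genes. The lower ones were Hrnr (-3.33), Crnn (-2.59), Flg (-1.73) and 4 Lce1 genes. Without the 8 Lce1-rich cells 26 members were compared, 9 higher (4.19%) and 3 lower (3.53%), and the median turned to 0.59. In cKO_PD against cKO_control 2 of 20 members were higher (background 1.82%), Sprr1a and Sprr2d, and 2 lower (2.17%), Crnn and Sprr2f, with a median of 0.20 beside -0.03. With a cap of 10% in place of 20% mitochondrial UMIs 0 of 20 were higher (2.06%) and 4 lower (3.37%), and the median was -0.34. That cap lies below the median mitochondrial share of the control barcodes and above that of the PD barcodes.

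In the genotype pairs nearly all called members were lower in cKO. In cKO_control against cHet_control 1 of 37 members was higher (background 0.146%), Sprr2f, and 10 were lower (0.162%), with a median log2 fold of -0.59 beside -0.0033 over all genes. Those lower were Hrnr (-1.84), Lor (-1.63), Flg (-1.48), Sprr3 (-1.41), Sprr1a (-1.27), Rptn (-1.12) and 4 Lce1 genes. Without the 8 Lce1-rich cells 1 of 20 was higher (0.146%) and 5 lower (0.106%), Rptn and the Lce1 genes dropping out, and the median was -0.09. In cKO_PD against cHet_PD 0 of 26 members were higher (background 0.318%) and 8 lower (0.727%), with a median of -0.64 beside 0.01. These were Sprr2i (-3.35), Sprr2j-ps (-2.21), Sprr2f (-1.76), Sprr2h (-1.75), Sprr2e (-1.41), Sprr1a (-1.37), Sprr1b (-1.19) and Lce3f (-1.12). With the cap of 10% mitochondrial UMIs the lower calls against cHet_control came to 16 of 40 in cHet_PD (background 4.66%) and to 17 of 37 in cKO_control (0.239%). Over all keratinocytes the values move with the make-up of the class, and the share of upper spinous-like cells was 8.66% in cHet_control and 2.40% to 6.69% elsewhere. The numbers of cells in clusters 14 and 15 differed between libraries as well.

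**Figure D4:**
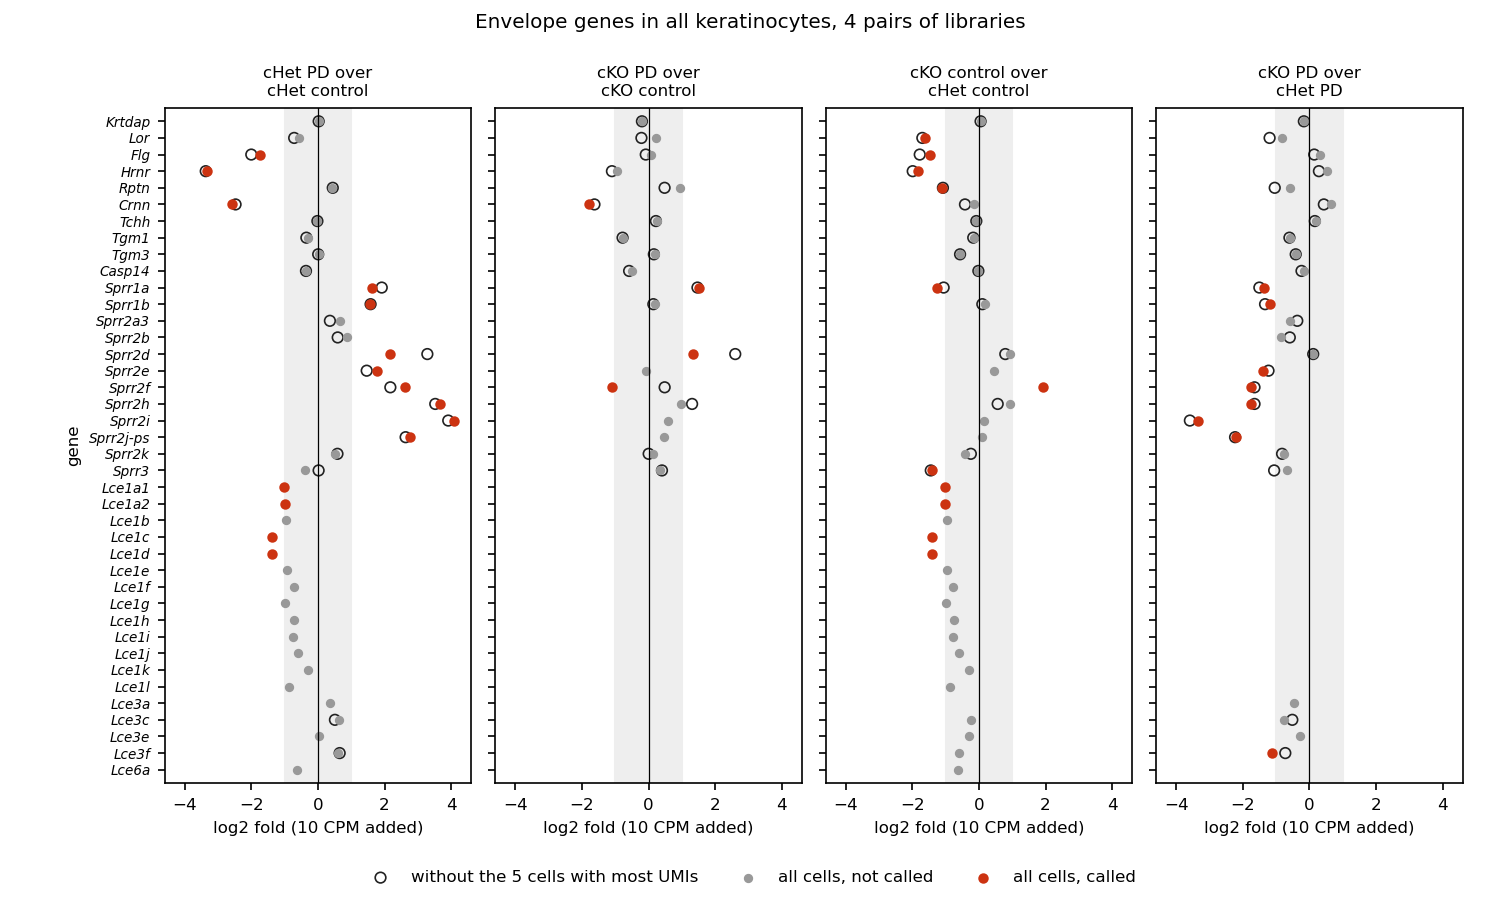
Log2 fold (10 CPM added) of each member compared over all keratinocytes in 4 pairs of libraries, red where called, grey where not, with open circles for the value without the 5 cells of each library that held most UMIs of the gene. The shaded band spans less than 2-fold. Open circles are drawn only for genes that then kept at least 50 UMIs in 1 of the 2 libraries. In cHet_control the 5 cells with most UMIs of the Lce1 genes and Lce6a held 5602 of their 5822 UMIs. Sprr genes led the higher calls in cHet_PD.

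Within the upper spinous-like layer PD was accompanied by more transcript of several envelope genes in both genotypes. In the 4 libraries Rptn reached 570 CPM (553 to 587), 2032 (1942 to 2126), 309 (293 to 326) and 1337 (1247 to 1431), Sprr1a 813, 1808, 576 and 2171, and Lor 1579, 3334, 604 and 1435. Both PD libraries lay above their control for each of the 3. Rptn was 3.57-fold higher in PD in cHet (3.38 to 3.77) and 4.32-fold in cKO (3.96 to 4.71), Sprr1a 2.23-fold (2.11 to 2.35) and 3.77-fold (3.53 to 4.03), and Lor 2.11-fold (2.03 to 2.20) and 2.37-fold (2.20 to 2.56). A UMI of Rptn was found in 16.2%, 44.1%, 18.8% and 33.3% of the cells of the layer. In cKO_PD 1 cell held 418 of its 832 UMIs there, and without the 5 top cells of each library its log2 fold of PD over control was 1.65 in cHet and 1.16 in cKO. The layer was not of 1 kind: in the clustering of all cells 23.0%, 45.5%, 19.1% and 29.4% of it fell in the cluster with the most granular-layer markers, a share higher in each PD library than in its control, and the part of this in the differences was not tested. The median depth of the layer was lower in PD, at 12083, 5119, 11480 and 5636 UMIs per cell. A UMI of Lor was found in 54.0%, 57.3%, 48.5% and 41.2% of the cells. Without the 5 top cells of each library its log2 fold fell from 1.07 to 0.68 in cHet and from 1.23 to 0.61 in cKO. The 5 cells are a larger share of the smaller PD layers, and the median over all genes compared fell too. It moved from -0.19 to -0.51 in cHet and from -0.14 to -0.47 in cKO. How far few cells carried the level of Lor was not tested.

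Hrnr, Crnn and Tgm1 did not share that direction. Hrnr reached 1001 CPM (978 to 1024), 196 (169 to 227), 306 (290 to 323) and 304 (262 to 350) in the upper layer, so that cHet_control stood above the 3 others, and it was 5.10-fold lower in cHet_PD (4.40 to 5.93). Crnn held 644, 3, 339 and 62 UMIs, or 86.2, 3.20, 77.9 and 99.6 CPM, and was low in cHet_PD alone. Tgm1 reached 68.0, 34.1, 75.1 and 22.5 CPM and was 3.34-fold lower in cKO_PD than in cKO_control (1.96 to 6.18). Sprr1b, at 3542, 5776, 5175 and 5940 CPM, stayed within 1.63-fold in each pair of this layer, and Krtdap, at 9204, 10803, 10278 and 8616 CPM, within 1.25-fold.

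In counts for the upper spinous-like layer, cHet_PD against cHet_control had 6 of 34 members higher (background 2.26%) and 16 lower (7%), with a median log2 fold of -0.51 beside -0.19. Of the 16 lower, 14 were Lce1 genes or Lce6a, and without the 8 Lce1-rich cells 7 of 18 were higher (2.27%) and 2 lower (6.86%), with a median of 0.71. In cKO_PD against cKO_control 7 of 15 were higher (1.43%), namely Sprr2i, Rptn, Sprr1a, Lor, Tgm3, Sprr3 and Flg, and 1 lower (6.82%), Tgm1, with a median of 0.98 beside -0.14. Without the 5 top cells of each gene 4 of 12 were higher (0.491%) and 1 lower (23%), and the median was 0.17 beside -0.47. In cKO_control against cHet_control 0 of 33 were higher (0.306%) and 21 lower (0.637%), with a median of -1.31 beside -0.10. Without the 8 cells 0 of 16 were higher (0.307%) and 3 lower (0.282%), namely Hrnr, Lor and Sprr3, and the median was -0.27. In cKO_PD against cHet_PD 1 of 15 was higher (0.594%), Crnn, which held 3 and 62 UMIs, and 5 were lower (2.25%), namely Lce3f, Sprr2h, Casp14, Sprr2j-ps and Lor, with a median of -0.60 beside -0.10. Without the 5 top cells of each gene 0 of 13 were higher (0.725%), Crnn being too low to compare, and 7 lower (4.07%), 4 of them among the 5 named, with a median of -1.25 beside -0.16.

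**Figure D5:**
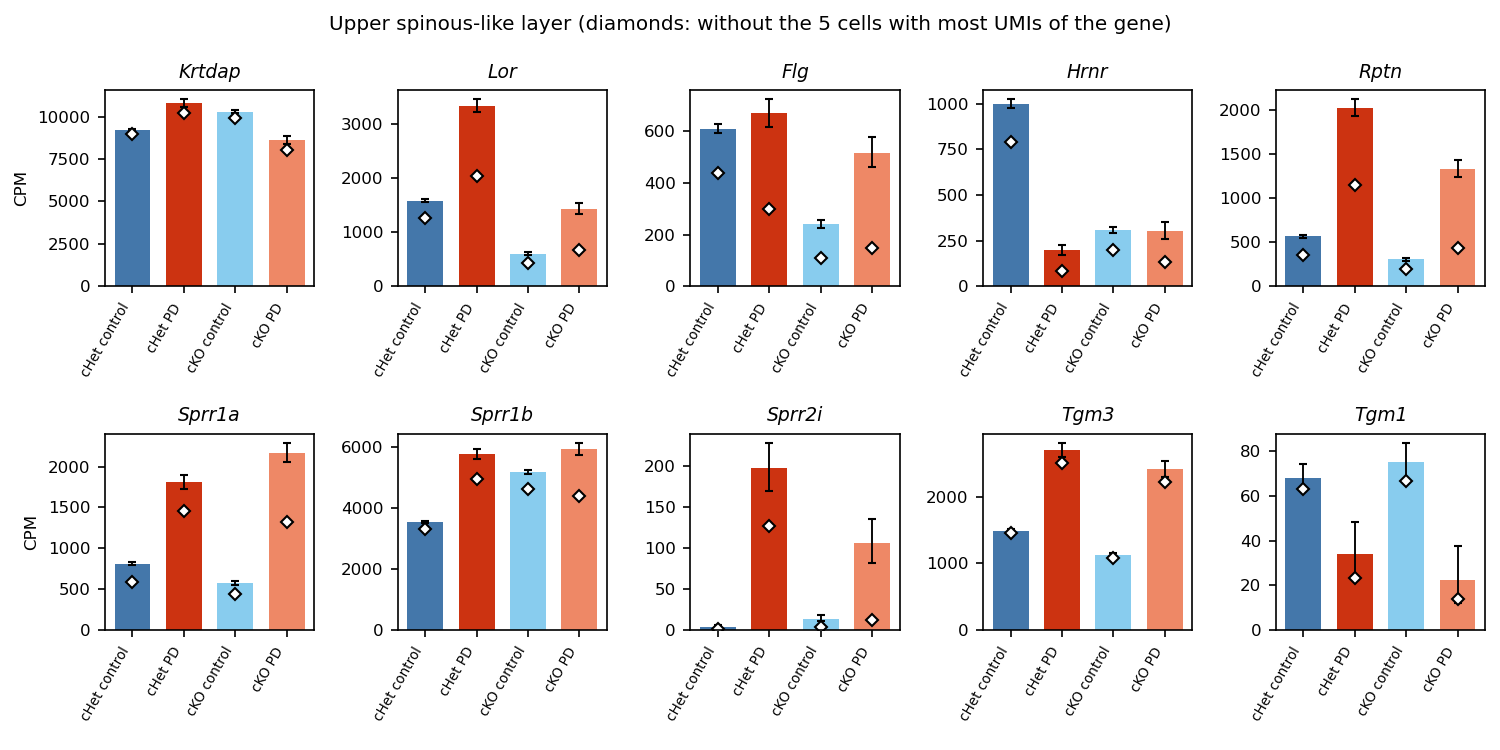
CPM of 10 members in the upper spinous-like layer of each library (bars, from 0), with exact 95% Poisson intervals and diamonds for the value without the 5 cells of that library with the most UMIs of the gene. Rptn, Sprr1a and Lor stood higher in each PD library than in its control, and Hrnr was highest in cHet_control.

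The wound-type cluster 3 carried the highest Sprr1a and Sprr1b levels of both PD libraries, and the highest Sprr2i level of cHet_PD. In cKO_PD Sprr2i was highest in the upper spinous-like layer, at 106 CPM against 34.8 in cluster 3. The cluster held more than 40 cells only in the PD libraries. In cHet_PD Sprr1b reached 12486 CPM (12351 to 12622), and in cKO_PD it reached 10541 (10237 to 10852), with a UMI in 99.2% and 98.2% of the cells, and Sprr1a 6721 and 4592 CPM. Against the upper layer of the same library, 9 of 22 members were higher and 5 lower in cHet_PD (background 5.84% and 2.61%), and 2 of 12 higher and 7 lower in cKO_PD (7.34% and 4.56%). Between the PD libraries the Sprr1 genes of this cluster differed by less than 2-fold and the Sprr2 genes by far more. Sprr2i reached 1624 CPM (1575 to 1673) and 34.8 (19.5 to 57.4), Sprr2h 920 and 48.7, Sprr2j-ps 493 and 46.4, and Sprr2d 386 and 27.8. Sprr2e and Sprr2f, at 188 and 305 CPM in cHet_PD, had 0 UMIs in the 55 cells of cKO_PD and were at least 27.0-fold and 43.9-fold lower. Of 20 members compared between the 2, 2 were higher in cKO_PD (2.51%), Casp14 (2.33-fold, 2.04 to 2.64) and Lor (2.05-fold, 1.78 to 2.36), and 11 lower (5.34%), with a median log2 fold of -1.57 beside -0.01. Without the 5 top cells of each gene 0 of 19 were higher (1.1%) and 11 lower (17.8%), with a median of -1.84 beside -0.37. Casp14 and Lor then lost their call. The 5 cells were a larger share of the 55 cells of cKO_PD than of the 260 of cHet_PD, and the median over all genes moved down as well. S100a8 and S100a9, which neutrophils and inflamed keratinocytes both make, reached 3644 and 2009 CPM in cHet_PD and 420 and 176 in cKO_PD in this cluster. The neutrophil list of 10 markers summed to 5682 and 684 CPM, with Camp and Mmp8 at 0 in cHet_PD and Csf3r, Mmp8 and Il1r2 at 0 in cKO_PD, and its part in the Sprr2 difference was not tested.

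Junctional-like cells, which do not cornify in the textbook account, held a narrow set of members. In cHet_PD, cKO_control and cKO_PD, the libraries with enough of these cells, Sprr2d reached 992 CPM (952 to 1033), 2067 (1968 to 2170) and 765 (729 to 804), Sprr2h 312, 393 and 154, and Sprr1a 1389, 615 and 345. Lor was at 15.5, 10.1 and 7.54 CPM there. Against the upper layer 5 of 20 members were higher and 11 lower in cHet_PD (background 23.2% and 5.59%), 4 of 18 and 11 in cKO_control (11.3% and 8.24%), and 3 of 17 and 12 in cKO_PD (32.2% and 4.58%). Sprr1b separated the libraries, at 1100 CPM (1057 to 1143) in cHet_PD, 79.5 (61.1 to 102) in cKO_control and 204 (185 to 224) in cKO_PD. In cKO_PD against cHet_PD 0 of 16 members were higher (1.34%) and 9 lower (1.39%), among them Sprr1b at 5.39-fold (4.87 to 5.98), Sprr1a at 4.03-fold (3.72 to 4.37) and Tgm1 at 2.59-fold (1.87 to 3.63). Without the 5 top cells of each gene 1 of 12 was higher (1.66%) and 6 were lower (1.33%). In cKO_PD against cKO_control 2 of 11 were higher (4.43%) and 5 lower (2.79%), but without the 5 top cells 2 of 7 were higher (13.9%) and 0 lower (1.52%). Sprr2d and Sprr2f turned positive then, from -1.42 to 0.47 and from -4.40 to 1.67 in log2 fold. The 5 cells were a larger share of the smaller cKO_control group. The median over all genes compared moved from 0.16 to 0.44, which is near the Sprr2d value.

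In the mucosal suprabasal-like layer several envelope genes were higher in cHet_PD. In cHet_control, cHet_PD and cKO_control Sprr1b reached 247 CPM (231 to 264), 3673 (3534 to 3815) and 140 (120 to 163), Tgm3 512, 3247 and 451, and Lor 134, 986 and 42.3. The cHet_PD library was far above both controls. Sprr1b was 14.9-fold higher in cHet_PD than in cHet_control (13.8 to 16.1), Lor 7.34-fold (6.53 to 8.25) and Tgm3 6.34-fold (5.96 to 6.74). In all 5 of 11 members were higher (background 5.02%) and 0 lower (8.59%), and without the 5 top cells of each gene 3 of 8 were higher (3.79%) and 0 lower (20.8%), with Rptn and Sprr2j-ps too low to compare. The layer held 331, 103 and 118 cells in these libraries and 9 in cKO_PD. In cKO_control against cHet_control 0 of 10 were higher (0.076%) and 5 lower (0.699%), namely Sprr1a, Rptn, Lor, Hrnr and Casp14. Against the upper layer this layer had fewer envelope transcripts, with 0 higher and 25 lower of 31 members in cHet_control (3.46% and 3.89%; without the 8 Lce1-rich cells 0 and 9 of 14, 3.48% and 3.52%), 0 and 8 of 14 in cHet_PD (6.97% and 3.64%) and 1 and 10 of 15 in cKO_control (3.73% and 4.75%).

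Member RNA was also counted in cells that should lack it. In fibroblasts Krtdap reached 460, 576, 696 and 314 CPM, with a UMI in 37.8%, 33.9%, 35.5% and 24.3% of them, Sprr1b 52.1, 231, 150 and 32.3 CPM, and Lor 1.97, 134, 3.77 and 4.30 CPM. Krtdap in basal-like cells, at 622 to 1016 CPM, lay closer to these values than to those of spinous-like cells, and a UMI of it in a basal-like cell is not read as expression. Sprr1b in basal-like cells, at 25.4, 78.8, 22.3 and 25.4 CPM, was below its level in fibroblasts of the same library. In the upper layer and cluster 3 the values quoted above for Lor and Sprr1b were higher than the fibroblast values of the same library, and so they were in the mucosal layer except for Sprr1b in cKO_control. In junctional-like cells Lor in cHet_PD and Sprr1b in cKO_control lay below the fibroblast value. Hrnr and Crnn were unevenly spread over the fibroblasts of cHet_control, at 169 and 219 CPM but with a UMI in 4.90% of these cells each. The Hrnr value lay near that of all keratinocytes of this library, and the Crnn value above it. Hrnr in the upper layer (1001 CPM) and Crnn in cluster 4 (405 CPM) exceeded the fibroblast values, whereas Crnn in the upper layer (86.2 CPM) did not.

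Other genes of the cornification programme, taken from lists chosen by function, were compared in the same pairs over all keratinocytes. The background of the pairs applies to this list and to those that follow. It was 4.15% higher and 3.57% lower in PD against control in cHet, and 1.82% and 2.17% in cKO. In cKO against cHet it was 0.146% and 0.162% in controls, and 0.318% and 0.727% in PD. Of 32 further envelope and desmosome scaffold proteins, 31 could be compared in cHet_PD against cHet_control: 3 were higher, Anxa1 (626 CPM in control and 4635 in PD, log2 fold 2.87), S100a10 (1.70) and Dsg3 (1.16), and 8 lower, led by Krt2 (4499 and 517 CPM, -3.10), Lgals7 (-3.06) and Cst6 (-2.24). In cKO_PD against cKO_control 1 of 31 was higher, Anxa1 (1.87), and 6 lower, led by Krt2 (-3.82), Lgals7 (-3.23) and Cst6 (-2.32). Krt2, the keratin of the upper cornified layers, was also lower in cKO in both genotype pairs, at -2.17 and -2.90, in company with Cdsn (-1.66) and Kprp (-1.48) in the control pair. Without the 8 Lce1-rich cells Cdsn stayed lower at -1.18 and Krt2 at -2.17, while Kprp was left with 7 and 20 UMIs, too few to compare. The median log2 folds of this list over the 4 pairs were -0.62, -0.23, -0.11 and -0.16.

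Among 26 proteases and inhibitors of filaggrin processing and shedding, 2 of 24 were higher and 4 lower in PD in cHet. Klk10 (2.06) and Furin (1.11) were higher, and Klk5 (-1.89), Klk8 (-1.87), Spink5 (-1.59) and Padi1 (-1.10) lower. In cKO Klk10 (1.01) was higher and Klk8 (-2.05) lower in PD, of 23. Between genotypes 1 of 23 differed in controls, Asprv1 (-1.07), the protease that cuts profilaggrin, which without the 8 Lce1-rich cells was at -0.83 and not called, and 1 of 22 in PD, Spink5 (1.02). Of 30 enzymes of the lipid envelope and ceramide synthesis, Degs1 was higher in PD in both genotypes (1.40 and 1.22), Ugcg (1.18) was higher and Pla2g2f (-1.37) lower in cHet, and Alox12b was lower in cKO_PD than in cHet_PD (-1.16).

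Of 46 regulators of terminal differentiation 45 were compared in each pair. In PD 5 were higher in cHet, led by Cebpb (2.64), Prdm1 (2.18) and Jund (1.28), and 1 lower, Rora (-1.40). In cKO 4 were higher, Cebpb (2.56), Jund (1.47), Prdm1 (1.28) and Atf3 (1.24), and 0 lower. Prdm1, which encodes the repressor BLIMP1 needed for cornification, was the 1 gene of this list called between the PD libraries, at 71.9 CPM in cHet_PD and 29.1 in cKO_PD (-1.07). In controls 0 of 45 differed between genotypes. Of 14 S100 and other neighbours of the gene cluster, S100a8 (4.81 and 3.73) and S100a9 (4.29 and 3.64) were higher in PD in both genotypes, and S100a6, S100a7a and Pglyrp4 in cHet. S100a7a was lower in cKO_PD than in cHet_PD (-1.11), and S100a8 was higher in cKO_control than in cHet_control (1.19). The list of 10 neutrophil markers summed to 75.5, 1539, 137 and 1729 CPM in keratinocytes, of which S100a8 and S100a9 made up most in PD, and Camp stood at 0 in cKO_control. The part of neutrophil RNA in these S100 values was not tested.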

How the data were processed

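Single-cell RNA was counted in 4 libraries of mouse gingiva, 1 per group. The authors deposited raw UMI counts per gene and barcode, made with fastp and STARsolo 2.7.10a on mm10, per the submitters' processing notes. Per the labels' protocols the libraries were BD Rhapsody whole-transcriptome libraries, while another label names 10x Genomics. The treatment of reads that fit several genes is not given in the sources used here. The members and the gene lists were chosen with earlier results of these data known.

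Cells with at least 200 genes and at most 20% mitochondrial UMIs were kept, 6595 to 8967 per library. They were clustered with scanpy 1.11.5 (2000 variable genes, 30 components, 15 neighbours, Leiden resolution 1) after Itga9 and the member genes had been removed from the clustering, and clusters were named from marker lists. Scrublet called 0 to 2 cells per library, which is too few to be of use, so doublets stayed in. Counts were summed per layer and library and given as CPM with exact Poisson intervals, and ratios with exact conditional (Clopper-Pearson) intervals, all at 95%. A gene was compared with at least 50 UMIs in 1 of 2 libraries and called at 2-fold with 10 CPM added, where the interval excluded 1. Folds against 0 UMIs were computed against 3 UMIs. The calling rule and the intervals were tested on simulated Poisson counts of summed libraries. Clustering, naming and cell filters were not simulated. Such counts hold no single cells with a large share of a gene's UMIs, so they do not show how calls behave there.

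Values in every library were given for the most abundant members of each family, and folds for the 5 members with the largest change in either direction in each pair. Other members were named where a count called for it. Alternatives were TMM scaling (edgeR 4.0.16 in R 4.3.3), other minimums, added CPM, filters on cells, clusterings, thinning to 1000 UMIs and means over cells. Leaving out the 8 cells rich in Lce1, and the 5 cells with most UMIs of each gene, were chosen after seeing the data. Windows upstream of genes came from RefSeq promoters of GRCm38.p6. Python 3.11.15, numpy 2.4.6, pandas 2.3.3 and scipy 1.17.1 were used.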

Additional observations from a re-analysis of the deposited data

Results flagged for a closer look

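Sprr2f over all keratinocytes was called in opposite directions in the 2 genotypes. Its log2 fold of PD over control was 2.60 in cHet and -1.08 in cKO. The difference between these folds was not tested, and without the 5 cells with the most Sprr2f UMIs in each library the cKO value was 0.49.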

How the results depend on the processing

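Each group was 1 library, so all values compare these libraries and not the conditions, and counting intervals leave out the spread between animals. No paired analysis was possible because no group held a second library. Over all alternatives 161 recomputed counts of members stayed within 1.5 times the value reported and 47 did not, and 312 named log2 folds kept their call, 11 lost it and 2 reversed. CPM values were less stable. Of those recomputed for abundant members in keratinocytes and the upper layer, 346 stayed within the counting interval of the reported value and 454 did not. TMM scaling, a UMI floor of the control libraries and leaving out the 5% of cells with the highest doublet scores moved no count beyond that and no median. The UMI floor put 20 CPM values outside their interval and the doublet setting 15. With TMM the median log2 fold of all genes in keratinocytes of cHet_PD against cHet_control was -0.01 in place of -0.06. Thinning left out 24.5% of all kept cells of cHet_PD and 15.6% of those of cKO_PD.

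In what follows the pairs are named in the order PD against control in cHet, PD against control in cKO, cKO against cHet in controls, and cKO against cHet in PD; where the cause of a change is not given by the setting itself, the cause was not tested. For the settings of this paragraph and the next, the share of all genes called was computed for the mitochondrial cap alone, and only over all keratinocytes. The other counts stand without that background, and the number of members compared can differ between settings. With 1 CPM added, members higher and lower over all keratinocytes came to 13 and 17, 6 and 4, 4 and 24, and 1 and 14. These were of 40, 20, 37 and 26 members compared, with medians of -1.70 and -1.24 in the genotype pairs. In the upper layer the control genotype pair then had 2 higher and a median of -3.30. With the cap of 10% mitochondrial UMIs, 16 were lower in the first pair, 0 higher and 4 lower in the second with a median reversed to -0.34, and 3 higher and 17 lower in the third; the upper layer had 1 higher in the third. With means over cells the first median was 0.014, reversed, the second pair had 4 higher and 1 lower, the fourth 1 higher, and the upper layer 12 higher in the first. Sprr2f in cKO PD against control reversed to 0.043.

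In the upper layer Leiden resolutions of 0.5 and 2 both gave 13 higher in the first pair, 0 lower in the second, and 2 higher and 10 lower in the fourth, and resolution 2 gave 2 higher over all keratinocytes in the third. Clustering with the member genes gave 10 higher in the first, 3 higher in the second, 1 higher in the third and 8 lower in the fourth. Thinning gave medians of -2.51 in the first and -2.55 in the third, 0 lower in the second and 0 higher in the fourth. With no minimum beyond 1 UMI the medians were 0.38 in the second and -0.66 in the third, and the fourth had 2 higher and 9 lower.

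Without the 8 cells rich in Lce1, chosen after seeing the data, 3 of 26 members were lower in the first pair over all keratinocytes (background 3.53%). The median there reversed to 0.59, and 5 of 20 were lower in the third pair (0.106%). In the upper layer 2 of 18 were lower in the first (6.86%) with a median reversed to 0.71, and 3 of 16 in the third (0.282%) with -0.27. Without the 5 top cells of each gene, also chosen after seeing the data, keratinocytes had 3 of 24 lower in the first (background 3.71%). The median there reversed to 0.48, and the third had 0 of 16 higher (0.118%) and 6 lower (0.109%). The upper layer had 3 of 16 lower in the first (18.9%) with a median reversed to 0.64. It had 4 of 12 higher in the second (0.491%) with 0.17 and 3 of 13 lower in the third (0.52%) with -0.43. In the fourth 0 of 13 were higher (0.725%) with a median of -1.25. Sprr2f in cKO PD against control reversed to 0.49.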
